A study of Mus musculus with 9 samples.

Results

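A set of 9 kidney genes that are widely read as markers of tubular injury and repair were followed over all groups of a mouse obstruction study: 9 of the 20659 gene symbols that the array's probes could be matched to. They were Havcr1, Lcn2, Vcam1, Sox9, Sox4, Clu, Spp1, Cd44 and Prom1, and every non-control probe whose RefSeq accession belongs to 1 of them was taken, which gave 15 probes of 39429. All 9 genes and all 15 probes passed the filter for dim signals (a probe had to stand well above background on 2 or more arrays), so no marker was lost to it.

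RNA came from kidney cortex of wild-type mice and of Notch3-/- mice, which lack the receptor Notch3. The right ureter was tied for 5 days in mice 12 to 16 weeks old, a model called unilateral ureteral obstruction (UUO) in which urine backs up, tubules dilate and atrophy, and the interstitium becomes inflamed and fibrotic. The 4 groups were wild-type healthy (2 arrays), wild-type UUO (2 arrays), Notch3-/- healthy (2 arrays) and Notch3-/- UUO (3 arrays), each array carrying Cy3-labelled RNA of 1 sample. Healthy kidneys are the untreated opposite kidneys according to the design text, so they sat in animals that also carried an obstructed kidney. The labels tie no array to an animal, so whether a group's arrays are from different mice is unknown, and p-values therefore measure the spread between arrays, which may be technical. Levels are given as log2 signal, with 0 set at each array's 75th percentile, and differences as log2 fold changes with the SE of a limma fit over all 9 arrays. A gene was called changed at a Benjamini-Hochberg adjusted p under 0.05 over the 23878 genes and transcripts tested. No gene's level is set against that of another gene. Where the levels of a marker list are summed, the sum serves only to set arrays side by side, and bright probes weigh most in it.

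The arrays had between 65.3% and 73.2% of 43020 non-control spots well above background and no saturated spot. All 12 proximal tubule markers were well above background on every array. The Notch3 probe read -0.50 to 0.92 on the wild-type arrays and -5.39 to -3.63 on the Notch3-/- arrays, without overlap. Wild-type and Notch3-/- arrays were scanned on different days, so that genotype and scan cannot be told apart. The wild-type healthy arrays, on slides 1 and 3, shared neither slide nor scan day with the wild-type UUO arrays, both on slide 2, so the wild-type response to obstruction, and with it the difference between the genotypes' responses, cannot be told apart from slide and scan day either. Notch3-/- UUO replicates 2 and 3 stood apart from the other 7 arrays: Xist read 0.18 and 0.00 there and at most -5.71 elsewhere, Ddx3y read -3.80 and -3.67 against at least -0.26, and the adrenal gene Cyp11b1 read 4.69 and 5.15 against at most -4.13. Xist and Ddx3y are sex-linked genes. The summed linear level of 9 adrenal cortex markers was 238 and 298 on replicates 2 and 3 and at most 1.63 elsewhere. Whether those 2 arrays differ from the rest in the animal's sex or in adrenal tissue was not tested. For the 9 markers and for counts of called genes, values without those 2 arrays are given where they move a call or a size. Leaving them out leaves Notch3-/- UUO replicate 1 alone in its group, and it is then assumed to vary like the other groups. Replicate 1 stood apart in another way. Its summed linear level of 12 proximal tubule markers was 324, beside 131 and 130 on replicates 2 and 3. On the wild-type UUO arrays the sum was 123 and 191. Values without replicates 2 and 3 thus rest on the UUO array nearest to healthy kidneys by this sum.

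In an injured nephron the surviving tubular cells lose part of their mature program, re-express genes of the developing kidney and either recover or stay in a pro-inflammatory state. Havcr1 encodes kidney injury molecule 1 (KIM-1), a surface receptor by which proximal tubule cells take up dead neighbours, and Lcn2 encodes lipocalin-2 (NGAL), a secreted protein that binds iron-loaded siderophores. Both are used as urinary indicators of acute kidney injury. Sox9 and Sox4 are transcription factors of developing epithelia, Vcam1 is an adhesion molecule that tubule cells failing to recover display, Clu is a secreted chaperone, Spp1 (osteopontin) is a secreted matrix protein that binds Cd44 and integrins, Cd44 is the main hyaluronan receptor, and Prom1 (CD133) is a membrane glycoprotein used to mark scattered progenitor-like tubular cells.

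All 9 markers were called higher in UUO than in healthy kidneys of wild-type mice and 8 of 9 in those of Notch3-/- mice, Prom1 being the exception. In wild-type kidneys the call of Prom1 was weak and passed in 14 of 24 alternatives. In wild-type kidneys 25.9% of all genes tested were called and 14.1% were called higher, and in Notch3-/- kidneys 27.2% and 13.3%. These shares depended on single arrays. In wild-type kidneys 5.39% were called without wild-type UUO replicate 1, 9.23% without wild-type UUO replicate 2 and 10.1% with slide as a random block, with 8 markers called each time. In Notch3-/- kidneys the share was 5.14% without Notch3-/- healthy replicate 1, 7.52% without healthy replicate 2, 7.41% without UUO replicate 2 and 7.4% without UUO replicate 3, with 7 or 8 markers called. The median log2 fold change over the 9 markers was 4.15 in wild-type and 3.72 in Notch3-/- kidneys, beside 0.04 and -0.07 over all genes tested. All UUO arrays lay above all healthy arrays of the same genotype for 9 markers in wild-type and 8 in Notch3-/- kidneys, beside 33.5% and 26% of all genes tested. Because these genes were chosen as known injury markers and with earlier results of these arrays in view, the counts describe them and are no independent evidence of a direction. Since the RNA is from whole cortex, a change in the number of cells of a type and a change in RNA per cell cannot be told apart.

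**Figure D1:**
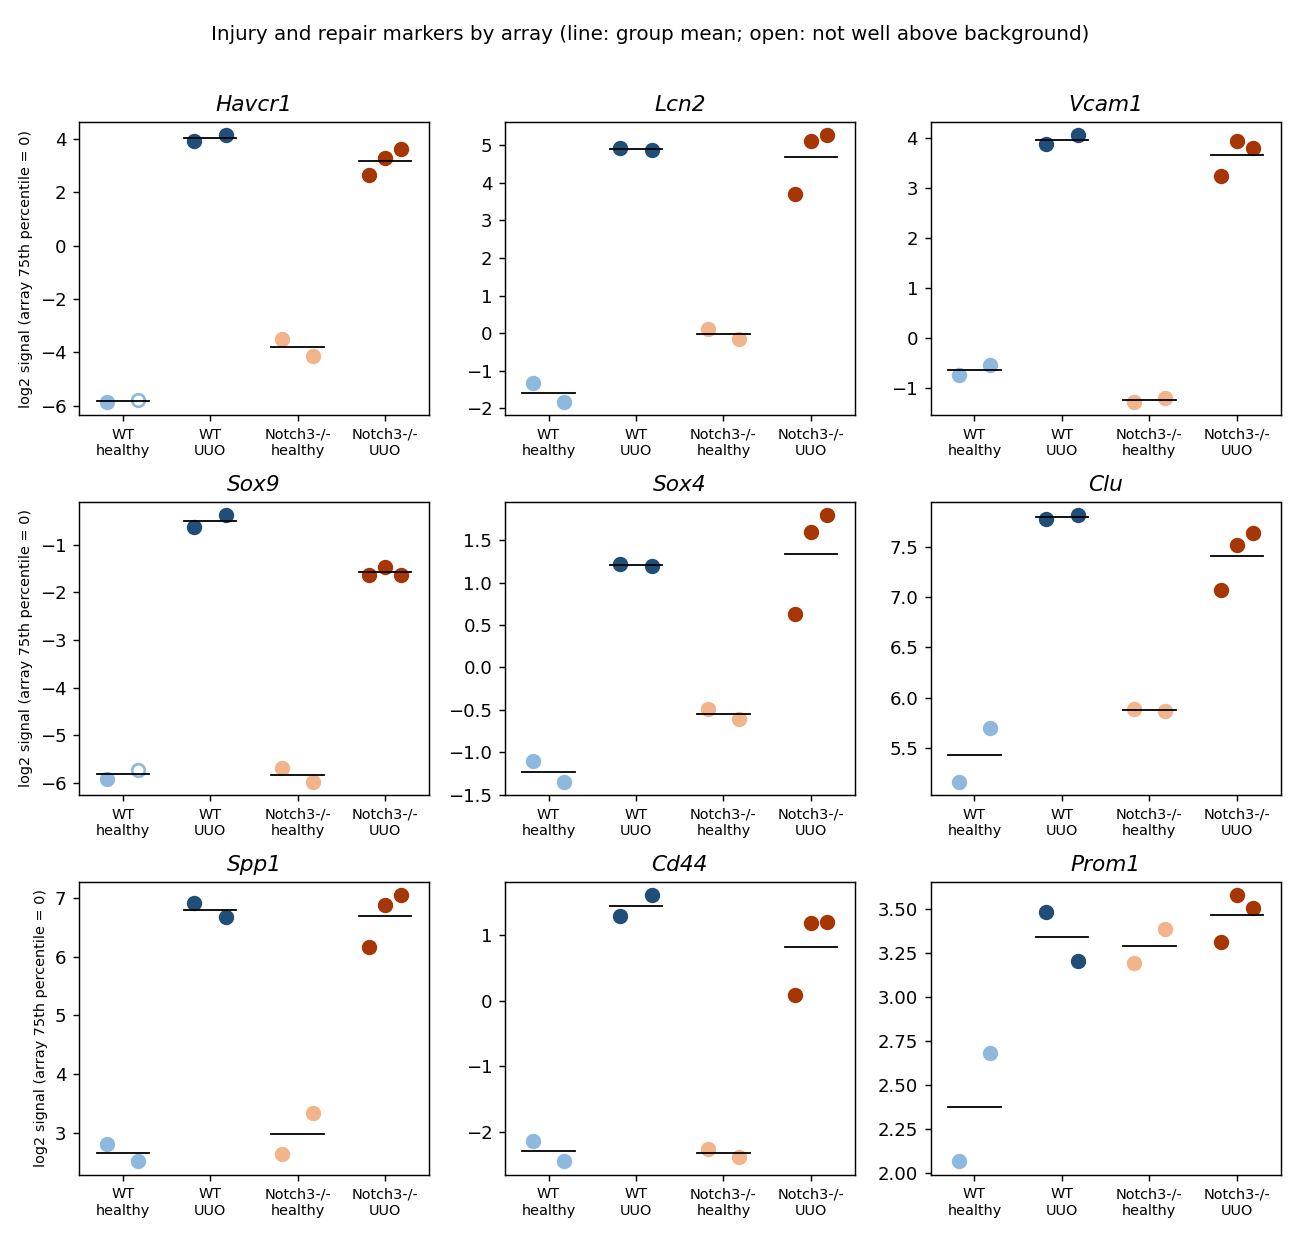
Log2 signal of the brightest probe of each marker (vertical axis, 0 at the array's 75th percentile) on each of the 9 arrays by group; points are arrays, lines group means, and open points arrays where the probe was not well above background. In every panel except Prom1 the UUO arrays of both genotypes lie above all healthy arrays, and Notch3-/- UUO replicate 1 (the leftmost of its 3 points) is the lowest of its group in all 9 panels.

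Promoter sequence was at hand for 6 of the 9 markers (Havcr1, Lcn2, Sox4, Spp1, Cd44 and Prom1, with 10 start sites in all) in RefSeq's table for GRCm38.p6, and the 250 bases before each start were searched for 7 short motifs. These were AP-1 (TGANTCA), NF-kappaB (by its consensus), STAT (TTCNNNGAA), TEAD (GGAATG), SOX (ACAATG), RBPJ (TGGGAA), the DNA partner of Notch receptors, and the TATA box (TATAAA). All 7 were searched on both strands, and motifs could overlap. The windows of 4 genes are shown because they carry the widest response (Havcr1, with no match) and the markers with matches to RBPJ, TEAD or AP-1 (Sox4, Cd44 and Prom1). Each is written from the base farthest from the start to the base before it, with the matches in capitals.
Havcr1, chr11:46739973-46740222, plus strand: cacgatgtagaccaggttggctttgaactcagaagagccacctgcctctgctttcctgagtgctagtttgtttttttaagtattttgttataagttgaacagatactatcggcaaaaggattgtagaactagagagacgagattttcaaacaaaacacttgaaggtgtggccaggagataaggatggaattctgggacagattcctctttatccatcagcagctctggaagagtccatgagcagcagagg
Sox4, chr13:28953700-28953949, minus strand: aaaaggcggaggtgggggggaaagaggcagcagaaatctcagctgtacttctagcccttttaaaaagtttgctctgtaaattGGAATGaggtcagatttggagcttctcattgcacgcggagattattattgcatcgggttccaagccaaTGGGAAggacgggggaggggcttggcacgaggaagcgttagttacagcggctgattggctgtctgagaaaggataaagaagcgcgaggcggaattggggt
Cd44, chr2:102901666-102901915, minus strand: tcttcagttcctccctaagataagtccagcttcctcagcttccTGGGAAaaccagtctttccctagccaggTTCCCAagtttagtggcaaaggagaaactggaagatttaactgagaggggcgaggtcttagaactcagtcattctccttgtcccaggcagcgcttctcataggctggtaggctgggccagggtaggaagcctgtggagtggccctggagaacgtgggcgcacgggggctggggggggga
Prom1, chr5:44101737-44101986, minus strand: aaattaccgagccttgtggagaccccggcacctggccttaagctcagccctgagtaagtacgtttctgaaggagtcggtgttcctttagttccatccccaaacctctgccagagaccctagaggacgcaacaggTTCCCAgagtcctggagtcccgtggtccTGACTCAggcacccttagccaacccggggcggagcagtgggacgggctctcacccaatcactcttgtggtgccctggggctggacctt
In Sox4 the TEAD letters lie 168 to 163 and the RBPJ letters 100 to 95 bases before the start. In Cd44 the RBPJ letters occur on the gene's strand at 207 to 202 and on the other strand at 179 to 174 bases. In Prom1 the RBPJ letters lie on the other strand at 116 to 111 bases and AP-1 on the gene's strand at 88 to 82 bases. A second Prom1 start held AP-1 at 189 to 183 bases, 1 Spp1 start held TATAAA at 211 to 206 bases, and the other windows of the 6 genes held none of the 7 motifs. Over all 32536 distinct windows of this length in the table, RBPJ letters occurred in 21.6%, TEAD in 12.6%, TATA in 12.3%, SOX in 10.5%, STAT in 7.04%, AP-1 in 6.73% and NF-kappaB in 1.4%. A match describes the letters only.

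The widest response was that of Havcr1, the injury receptor of the proximal tubule. Its probe read -5.85 and -5.79 on the wild-type healthy arrays, 3.93 and 4.13 on the wild-type UUO arrays, -3.50 and -4.12 on the Notch3-/- healthy arrays, and 2.64, 3.27 and 3.61 on the Notch3-/- UUO arrays. The 4 groups did not overlap anywhere, and their order from the highest was wild-type UUO, Notch3-/- UUO, Notch3-/- healthy and wild-type healthy. In wild-type kidneys Havcr1 rose by 9.85 ± 0.34 (adjusted p = 0.000243), 922-fold, which ranked 1 of 23878. On 1 of the 2 wild-type healthy arrays the probe was not well above background, so the size of this fold rests on a signal near the lower end of the array's range: with normexp background correction it was 7.88. In Notch3-/- kidneys Havcr1 rose by 6.98 ± 0.31 (adjusted p = 0.000417), 126-fold, and ranked 8. Without Notch3-/- UUO replicates 2 and 3 the gene still passed in both genotypes.

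Lcn2, the secreted siderophore binder that distal segments and neutrophils make, came next in wild-type kidneys; in Notch3-/- kidneys its rise was close to that of Vcam1. It read -1.34 and -1.83 in wild-type healthy, 4.92 and 4.87 in wild-type UUO, 0.10 and -0.17 in Notch3-/- healthy, and 3.71, 5.11 and 5.26 in Notch3-/- UUO kidneys. The UUO groups overlapped, while the Notch3-/- healthy arrays lay above the wild-type healthy ones. The rise was 6.48 ± 0.50 in wild-type (adjusted p = 0.00102, 89.0-fold) and 4.73 ± 0.46 in Notch3-/- kidneys (adjusted p = 0.0014, 26.5-fold).

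Neutrophils store lipocalin-2 in their granules, and their markers were read beside it. Of 10 neutrophil markers measured, of 12 listed, 5 rose in wild-type UUO kidneys and 0 were called by limma in Notch3-/- UUO kidneys (3 at an unadjusted p under 0.05). The wild-type count was 3 with quantile normalization, 2 with normexp, 3 with the authors' value table and 3 without Notch3-/- UUO replicates 2 and 3, and the Notch3-/- count was 1 with normexp. No difference between these responses passed the interaction test. Of the 10, Mmp8, Retnlg and Cxcr2 were well above background on neither wild-type healthy array. Mmp8 and Cxcr2 were so on 1 of 2 wild-type UUO arrays. Differences of these genes in wild-type kidneys thus rest on signals near the lower end of the range. S100a8, 1 subunit of the calprotectin pair, rose by 2.33 ± 0.55 in wild-type kidneys (adjusted p = 0.0245) and differed by 1.24 ± 0.50 in Notch3-/- kidneys (adjusted p = 0.108). S100a9, the other, rose by 2.40 ± 0.51 (adjusted p = 0.0189) and differed by 1.22 ± 0.47 (adjusted p = 0.0958). The granule enzyme Mpo lay between -4.94 and -3.66 on all 9 arrays. The summed linear level of the 10 markers was 76.4 to 86.2 in wild-type healthy, 66.7 to 73.7 in wild-type UUO, 68.8 to 92.5 in Notch3-/- healthy and 66.4 to 71.1 in Notch3-/- UUO kidneys. Csf3r made most of this sum: at its mean log2 signal its linear level was 79.5, 67.6, 78.3 and 66.6 in those groups. The sum thus follows this gene and says little of the other markers. The part of neutrophils in the Lcn2 result was not tested.

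Vcam1, the adhesion molecule that leukocytes bind through the integrin of Itga4 and Itgb1, rose in both genotypes. Its brighter probe read -0.74 and -0.54 in wild-type healthy, 3.88 and 4.06 in wild-type UUO, -1.27 and -1.20 in Notch3-/- healthy, and 3.25, 3.95 and 3.80 in Notch3-/- UUO kidneys. The UUO groups overlapped, and all healthy arrays lay far below them. The difference was 4.61 ± 0.24 in wild-type (adjusted p = 0.00054, 24.4-fold) and 4.90 ± 0.22 in Notch3-/- kidneys (adjusted p = 0.000417, 29.9-fold). A second, dimmer Vcam1 probe gave larger rises, of 6.01 ± 0.25 and 5.12 ± 0.22. By the brighter probe the rise in Notch3-/- kidneys was the larger by 0.29 (95% interval -0.48 to 1.07), and by the second it was the smaller, so the probes disagree on which genotype responded more.

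Binding partners of Vcam1 and related adhesion genes were read beside it. Of 7 integrin and adhesion genes measured, of 8 listed, 6 rose in wild-type and 6 in Notch3-/- kidneys. Itga4 rose by 1.55 ± 0.20 (adjusted p = 0.00382) and 2.16 ± 0.18 (adjusted p = 0.000877), and the leukocyte integrin chain Itgb2 by 1.76 ± 0.25 (adjusted p = 0.00577) and 2.32 ± 0.23 (adjusted p = 0.00161). Icam1, the ligand of the Itgb2 integrins, rose by 2.76 ± 0.28 (adjusted p = 0.00176) and 2.18 ± 0.25 (adjusted p = 0.00264). Icam2 was the gene without a call, at -0.03 ± 0.15 (adjusted p = 0.9) and 0.29 ± 0.13 (adjusted p = 0.154). Without Notch3-/- UUO replicates 2 and 3, a fit that calls 1.68% of all genes in Notch3-/- kidneys, 1 of the 7 rose there. Leukocytes carry these integrins, and of 8 T and NK cell markers 3 rose in wild-type and 5 in Notch3-/- kidneys, or 2 in Notch3-/- kidneys without those 2 arrays. Their summed linear level was 3.35 to 7.43 in wild-type healthy, 5.80 to 6.89 in wild-type UUO, 3.59 to 3.95 in Notch3-/- healthy and 5.46 to 5.95 in Notch3-/- UUO kidneys. In this sum the wild-type groups overlapped and the Notch3-/- groups did not. Gene by gene this was not so throughout. For Cd3d, Cd3g, Cd8a, Lck and Zap70 the wild-type UUO arrays lay above the wild-type healthy arrays. For Cd3e, Cd4 and Nkg7 the wild-type groups overlapped. Cd4 spanned 0.33 to 2.04 on the log2 scale in wild-type healthy and 1.17 to 1.34 in wild-type UUO kidneys. Macrophage markers, described with Spp1 and Cd44, rose on the same arrays, and the part of leukocytes in these adhesion genes was not tested.

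Vcam1 is also carried by activated endothelium. None of 9 endothelial markers rose in wild-type UUO kidneys, where Flt1 (-0.99 ± 0.18, adjusted p = 0.0115) and Tek (-0.80 ± 0.22, adjusted p = 0.0373) fell, and 1, Eng, rose in Notch3-/- UUO kidneys (0.70 ± 0.17, adjusted p = 0.0273). Their summed linear level was 18.3 to 18.4 in wild-type healthy, 14.7 to 15.7 in wild-type UUO, 12.0 to 12.5 in Notch3-/- healthy and 11.8 to 13.3 in Notch3-/- UUO kidneys. In Notch3-/- kidneys 0 of the 9 were called higher once UUO replicates 2 and 3 were left out. The part of endothelium in the Vcam1 result was not tested.

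Sox9, a SoxE transcription factor of the growing ureteric bud and of regenerating tubules, was near the lower end of the array's range in healthy kidneys. It read -5.91 and -5.72 in wild-type healthy (well above background on 1 of 2 arrays), -0.62 and -0.38 in wild-type UUO, -5.69 and -5.97 in Notch3-/- healthy, and -1.64, -1.46 and -1.64 in Notch3-/- UUO kidneys. The healthy groups overlapped, and the 3 Notch3-/- UUO arrays lay together below both wild-type UUO arrays. It rose by 5.31 ± 0.17 in wild-type (adjusted p = 0.000243, 39.7-fold) and by 4.25 ± 0.15 in Notch3-/- kidneys (adjusted p = 0.000417). As with Havcr1, background correction moved the size most: normexp gave 3.25 and 1.91, both still past the threshold.

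Sox4, a SoxC factor of epithelial development, showed a smaller rise. Its brighter probe read -1.11 and -1.35 in wild-type healthy, 1.22 and 1.20 in wild-type UUO, -0.50 and -0.61 in Notch3-/- healthy, and 0.63, 1.60 and 1.80 in Notch3-/- UUO kidneys. The UUO groups overlapped, and the Notch3-/- healthy arrays lay between the wild-type healthy and the UUO arrays. Sox4 rose by 2.44 ± 0.36 in wild-type (adjusted p = 0.00632) and by 1.89 ± 0.33 in Notch3-/- kidneys (adjusted p = 0.0119), and a second, dimmer probe rose by 3.11 ± 0.41 and 1.81 ± 0.37. When Notch3-/- UUO replicates 2 and 3 were left out, the brighter probe's difference in Notch3-/- kidneys was 1.18 (adjusted p = 0.0667) and was no longer called.

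Other Sox genes were read beside them. Of 3 measured relatives of Sox4 and Sox9, of 4 listed, Sox11, the second SoxC gene, rose in wild-type kidneys by 3.32 ± 0.54 (adjusted p = 0.00812). In Notch3-/- kidneys it differed by 1.19 ± 0.49 (adjusted p = 0.114). Its level was -6.72 and -4.99 in wild-type healthy, -2.57 and -2.50 in wild-type UUO, -4.90 and -4.82 in Notch3-/- healthy, and -4.12, -3.64 and -3.26 in Notch3-/- UUO kidneys. The probe was well above background on 1 of the 2 wild-type healthy arrays, so the size of the wild-type rise rests on a signal near the lower end. All Notch3-/- UUO arrays lay below the wild-type UUO arrays, as for 22.9% of all genes tested. Sox11 was called neither between the UUO groups nor in the interaction. Sox10 and Sox12 were not called in either genotype, except that 1 relative was called lower in Notch3-/- kidneys with normexp. Of 6 further Sox genes measured, of 8 listed, Sox5 fell in both (-0.62 ± 0.14, adjusted p = 0.0248, and -0.87 ± 0.13, adjusted p = 0.00751) and none rose.

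Clu, the secreted chaperone, was already bright in healthy cortex. Its probe read 5.17 and 5.70 in wild-type healthy, 7.78 and 7.81 in wild-type UUO, 5.89 and 5.87 in Notch3-/- healthy, and 7.07, 7.51 and 7.64 in Notch3-/- UUO kidneys. No group overlapped its neighbour in the order of means. It rose by 2.36 ± 0.24 in wild-type (adjusted p = 0.00188, 5.14-fold) and by 1.53 ± 0.22 in Notch3-/- kidneys (adjusted p = 0.00632, 2.88-fold). Without Notch3-/- UUO replicates 2 and 3 the latter was 1.19 (adjusted p = 0.127) and no longer called.

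Receptors for clusterin and lipocalin-2 split. Of 5 measured, of 6 listed, 2 rose and 2 fell in each genotype. Trem2, a receptor of macrophages that binds clusterin and lipids, rose by 4.58 ± 0.17 (adjusted p = 0.000313) in wild-type and 3.22 ± 0.16 (adjusted p = 0.000432) in Notch3-/- kidneys, and Lrp8, an apolipoprotein E receptor, was the other gene called higher in both. Lrp8 was well above background on 1 of the 2 wild-type healthy arrays and on neither Notch3-/- healthy array. It was at least 2.09-fold higher in Notch3-/- UUO kidneys (adjusted p = 0.0133), and its wild-type difference of 2.59 ± 0.65 (adjusted p = 0.0296) rests on that 1 healthy array for its lower end. Megalin, Lrp2, which reabsorbs filtered lipocalin-2 in the proximal tubule, fell by 1.93 on the log2 scale (SE 0.45, adjusted p = 0.0246) and by 1.85 (SE 0.41, adjusted p = 0.0225). The lipocalin-2 receptor Slc22a17 fell in wild-type kidneys (-0.66 ± 0.16, adjusted p = 0.0252) and Vldlr in Notch3-/- kidneys (-0.77 ± 0.21, adjusted p = 0.0395). With UUO replicates 2 and 3 from Notch3-/- mice left out, 1 rose and 0 fell in Notch3-/- kidneys. Trem2 was also called higher in Notch3-/- healthy than in wild-type healthy kidneys, by 1.65 (adjusted p = 0.0248).

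Spp1, the matrix protein osteopontin, rose from a high start. It read 2.80 and 2.51 in wild-type healthy, 6.93 and 6.67 in wild-type UUO, 2.63 and 3.33 in Notch3-/- healthy, and 6.17, 6.89 and 7.06 in Notch3-/- UUO kidneys. Genotypes overlapped in both states, and every UUO array lay above every healthy one. The rise was 4.15 ± 0.35 in wild-type (adjusted p = 0.00117, 17.7-fold) and 3.72 ± 0.32 in Notch3-/- kidneys (adjusted p = 0.000978, 13.2-fold).

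Cd44, which binds osteopontin and hyaluronan, has 4 probes on the array. The brightest read -2.14 and -2.44 in wild-type healthy, 1.28 and 1.60 in wild-type UUO, -2.26 and -2.38 in Notch3-/- healthy, and 0.08, 1.18 and 1.19 in Notch3-/- UUO kidneys. The healthy groups overlapped, and the Notch3-/- UUO arrays lay below the wild-type UUO arrays, replicate 1 by the widest gap. It rose by 3.73 ± 0.38 in wild-type (adjusted p = 0.00189, 13.3-fold) and by 3.14 ± 0.35 in Notch3-/- kidneys (adjusted p = 0.00236, 8.79-fold). All 4 Cd44 probes rose in both genotypes. For 2 of them the healthy kidneys gave no signal well above background, and against the lowest signal that was, they were at least 3.58-fold and 4.98-fold higher in wild-type UUO and at least 1.87-fold and 2.78-fold higher in Notch3-/- UUO kidneys. For these bounds a healthy array counted at the probe's own signal or at the dimmest signal still well above background there, whichever was higher.

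Of 10 osteopontin receptors, Cd44 among them, 7 rose in wild-type and 6 in Notch3-/- kidneys and none fell. Besides Cd44 and Itga4, the integrin chains Itgb3 (1.70 ± 0.28, adjusted p = 0.00895, and 1.56 ± 0.26, adjusted p = 0.0101) and Itga5 (1.47 ± 0.28, adjusted p = 0.0132, and 2.16 ± 0.25, adjusted p = 0.00275) rose in both. Without Notch3-/- UUO replicates 2 and 3, 2 of the 10 rose in Notch3-/- kidneys, and 0 of the hyaluronan genes. Of 13 genes of hyaluronan synthesis, turnover and linkage measured, of 15 listed, 3 rose in each genotype. They were the synthase Has1, the ezrin-family linker Msn and the hyaluronan-binding Tnfaip6 in wild-type kidneys, and Has1, Msn and the synthase Has2 in Notch3-/- kidneys. Msn rose by 1.14 ± 0.15 (adjusted p = 0.00391) and 1.03 ± 0.13 (adjusted p = 0.00398). Has1, Has2 and Tnfaip6 lay near the lower end of the signal range. Has1 was not well above background in the healthy kidneys of either genotype. It was at least 3.44-fold higher in wild-type UUO kidneys (adjusted p = 0.00253), while its level in Notch3-/- UUO kidneys, well above background on 2 of 3 arrays, gives no bound above 1-fold, so its call there has no fold. Tnfaip6 was not well above background in wild-type healthy kidneys and was at least 4.48-fold higher after obstruction (adjusted p = 0.0115). Has2 was not well above background in Notch3-/- healthy kidneys and was at least 2.03-fold higher in Notch3-/- UUO kidneys (adjusted p = 0.0282).

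Macrophages also make Spp1 and carry Cd44, and their markers rose on the same arrays. Of 9 measured, of 10 listed, 8 rose in each genotype, Cx3cr1 by 3.52 ± 0.24 (adjusted p = 0.000869) and 3.42 ± 0.22 (adjusted p = 0.000523) and Adgre1 by 3.36 ± 0.28 (adjusted p = 0.00115) and 3.48 ± 0.26 (adjusted p = 0.000675). Itgam was called lower in Notch3-/- kidneys, but its probes were called in opposite directions. When Notch3-/- UUO replicates 2 and 3 were left out, 5 of the 9 rose in Notch3-/- kidneys. The summed linear level of the 9 was 32.1 to 34.0 in wild-type healthy, 61.5 to 61.9 in wild-type UUO, 32.6 to 41.0 in Notch3-/- healthy and 50.1 to 59.1 in Notch3-/- UUO kidneys. Itgam made most of this sum in healthy kidneys: at its mean log2 signal its linear level was 20.2, 16.5, 24.2 and 12.8 in those groups. In healthy kidneys the sum thus says little of the other markers. The part of macrophages in the Spp1, Cd44 and Trem2 results was not tested.

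Prom1, the progenitor-associated glycoprotein, differed from the other 8. Its brighter probe read 2.07 and 2.68 in wild-type healthy, 3.48 and 3.20 in wild-type UUO, 3.19 and 3.39 in Notch3-/- healthy, and 3.31, 3.58 and 3.51 in Notch3-/- UUO kidneys. Both wild-type healthy arrays were low, and the other 3 groups overlapped one another. Prom1 rose by 0.97 ± 0.23 in wild-type kidneys (adjusted p = 0.026, 1.95-fold) and differed by 0.18 ± 0.21 in Notch3-/- kidneys (95% interval -0.32 to 0.68, adjusted p = 0.567). The wild-type call is weak: its adjusted p was 0.0674 with slide as a random block and it passed in 14 of 24 alternatives. The second probe was not called in wild-type kidneys (0.99 ± 0.45, adjusted p = 0.146) or in Notch3-/- kidneys (0.01 ± 0.41, adjusted p = 0.983).

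The relative of Prom1 and other progenitor genes were read beside it. Of 6 measured, of 7 listed, Cd24a, often used with CD133 to mark progenitor-like cells, rose by 1.33 ± 0.29 (adjusted p = 0.0194) and 1.40 ± 0.26 (adjusted p = 0.0147). Prom2 fell in wild-type kidneys (-1.99 ± 0.54, adjusted p = 0.0378) and differed by -1.44 ± 0.49 in Notch3-/- kidneys (adjusted p = 0.0714). Pax2, Lgr4, Lgr5 and Sall1 were not called in either. Havcr2, a TIM-family relative of Havcr1 found on immune cells, rose by 1.26 ± 0.28 (adjusted p = 0.0203) and 2.16 ± 0.25 (adjusted p = 0.00273), while Timd2 was not called. When Notch3-/- UUO replicates 2 and 3 were left out, neither Cd24a nor Havcr2 was called in Notch3-/- kidneys.

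**Figure D2:**
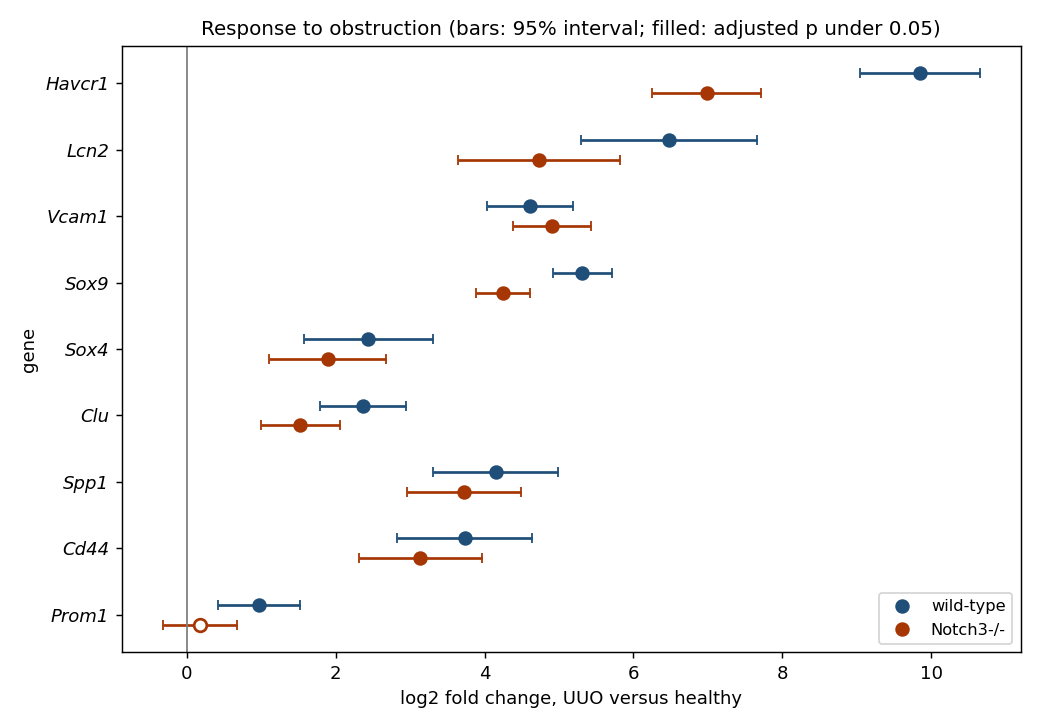
Log2 fold change from healthy to UUO kidneys (horizontal axis) of the 9 markers in wild-type (blue) and Notch3-/- kidneys (orange); bars are 95% intervals of the limma fit and filled points passed an adjusted p of 0.05. Estimates run from 9.85 for Havcr1 to 0.97 for Prom1 in wild-type kidneys, and Prom1 in Notch3-/- kidneys is the open point, with an interval that spans 0.

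**Figure D3:**
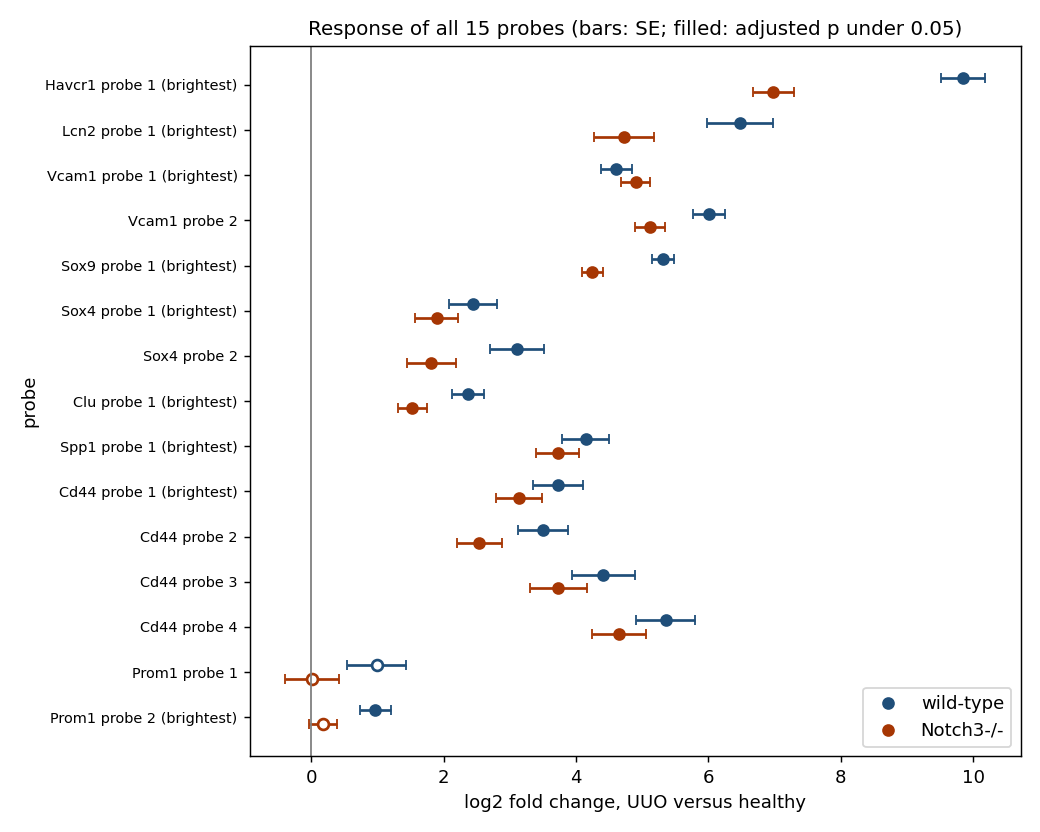
Log2 fold change from healthy to UUO kidneys (horizontal axis) of all 15 probes of the 9 genes in wild-type (blue) and Notch3-/- kidneys (orange); bars are SE and filled points passed an adjusted p of 0.05 in a fit with every probe. Of the 15 probes 14 were called higher in wild-type and 13 in Notch3-/- kidneys, and the open points are the probes of Prom1.

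Wild-type and Notch3-/- kidneys were then set against each other directly, the comparison that the design text names for obstructed kidneys. None of the 9 markers was called between the UUO groups, where 0.297% of genes tested were called (71 genes, 0.0796% higher and 0.218% lower), and none between the healthy groups, where 0.511% were called (122 genes, 0.239% higher and 0.272% lower). At an unadjusted p under 0.05 there were 2 markers in UUO and 4 in healthy kidneys, beside 16.8% and 17.7% of all genes. The median over the markers was -0.30 in UUO and 0.45 in healthy kidneys, beside 0.00 and 0.06 over all genes tested. Without Notch3-/- UUO replicate 1, 328 genes were called between the UUO groups, and without replicates 2 and 3, 0 were, with 0 markers in either. The UUO count was also 1 without wild-type UUO replicate 2, 7 without wild-type UUO replicate 1, 5 and 2 without Notch3-/- UUO replicate 2 or 3, 26 without either Notch3-/- healthy array and 633 without either wild-type healthy array, the last with 1 marker, Sox9. The healthy count was 3 without Notch3-/- UUO replicates 2 and 3, 20 and 6 without replicate 2 or 3 alone, 1 and 60 without Notch3-/- healthy replicate 2 or 1, 26 without either wild-type UUO array and 217 without wild-type healthy replicate 1. With slide as a random block 3 genes were called between the UUO and 12 between the healthy groups. Neither count of genes is therefore stable to the choice of arrays. Both comparisons run across scan days, so a genotype difference and a scan difference cannot be told apart.

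Sox9 came nearest to a call in obstructed kidneys. It was lower in the 3 Notch3-/- UUO arrays than in the 2 wild-type UUO arrays by 1.08 on the log2 scale (log2 fold change -1.08 ± 0.15, 95% interval -1.44 to -0.72, adjusted p = 0.0576), without overlap. The adjusted p ran from 0.00627 to 0.337 over 24 alternatives and passed in 8 of them, among them the authors' value table (-1.02, adjusted p = 0.0281), quantile normalization (-1.11, adjusted p = 0.0452) and normexp (-0.96, adjusted p = 0.026). With UUO replicates 2 and 3 from Notch3-/- mice left out it was -1.14 (adjusted p = 0.195), and with slide as a random block -1.13 (adjusted p = 0.27). The sign was negative in all 24.

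The other markers of obstructed kidneys gave intervals rather than calls. Havcr1 differed by -0.85 (95% interval -1.59 to -0.12, adjusted p = 0.241) with no overlap, Cd44 by -0.62 (-1.45 to 0.20) and Clu by -0.39 (-0.91 to 0.14), the last 2 also without overlap between their arrays. Over all genes tested 22.9% had Notch3-/- UUO arrays entirely below the wild-type UUO arrays. Vcam1 differed by -0.30 (-0.83 to 0.22), Lcn2 by -0.20 (-1.28 to 0.88), Spp1 by -0.10 (-0.86 to 0.67), Sox4 by 0.13 (-0.66 to 0.92) and Prom1 by 0.13 (-0.38 to 0.63), with overlapping arrays. The differences moved down when Notch3-/- UUO replicates 2 and 3 were left out, still with no call: Havcr1 to -1.38, Cd44 to -1.36, Lcn2 to -1.18, Clu to -0.72, Vcam1 to -0.72, Spp1 to -0.63, Sox4 to -0.58 and Prom1 to -0.03, so that the signs of Sox4 and Prom1 turned. For each marker, differences within its 95% interval of the main fit are not shown to be absent. For Sox4 and Prom1 all these values are of the brighter probe. In the fit with every probe, the second Sox4 probe gave -1.12 ± 0.37 (adjusted p = 0.226). The second Prom1 probe gave -0.30 ± 0.41 (adjusted p = 0.759). On both second probes the Notch3-/- UUO arrays all lay below the wild-type UUO arrays. The direction of Sox4 and Prom1 between UUO kidneys is therefore not settled by these probes.

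In healthy kidneys the widest genotype difference was that of Havcr1. Both Notch3-/- healthy arrays (-3.50 and -4.12) lay above both wild-type healthy arrays (-5.85 and -5.79), a difference of 2.01 ± 0.34 (95% interval 1.21 to 2.81, 4.03-fold) at an adjusted p of 0.068. It passed in 2 of 24 alternatives, with trended and robust moderation (adjusted p = 0.0426) and without Notch3-/- UUO replicate 1 (adjusted p = 0.0452), and ran up to 0.33 in the others. With normexp the difference was 1.05. Lcn2 (1.55 ± 0.50, 95% interval 0.36 to 2.73, adjusted p = 0.191) and Prom1 (0.92 ± 0.23, 95% interval 0.37 to 1.46, adjusted p = 0.134) were likewise higher on both Notch3-/- healthy arrays without being called. For Prom1 this is the brighter probe.

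The remaining markers of healthy kidneys lay closer. Sox4 differed by 0.68 (-0.19 to 1.54), Clu by 0.45 (-0.13 to 1.02) and Spp1 by 0.33 (-0.51 to 1.17), while Vcam1 differed by -0.60 (-1.17 to -0.03, adjusted p = 0.265). Cd44 (-0.03, -0.94 to 0.88) and Sox9 (-0.01, -0.41 to 0.38) had overlapping arrays. The second Vcam1 probe had the opposite sign, 0.40 ± 0.25 (adjusted p = 0.456), so the direction of Vcam1 between healthy kidneys is not settled by these probes. Of the 6 markers whose arrays did not overlap, Havcr1, Lcn2, Sox4, Clu and Prom1 had the higher Notch3-/- arrays, as did 27.8% of all genes, and Vcam1 the lower, as did 17.4%. This holds for the brightest probe of each marker. In the fit with every probe, the second Sox4 probe gave 0.18 ± 0.41 (adjusted p = 0.87) and the second Prom1 probe 0.67 ± 0.45 (adjusted p = 0.492). On both second probes the arrays of the healthy groups overlapped.

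**Figure D4:**
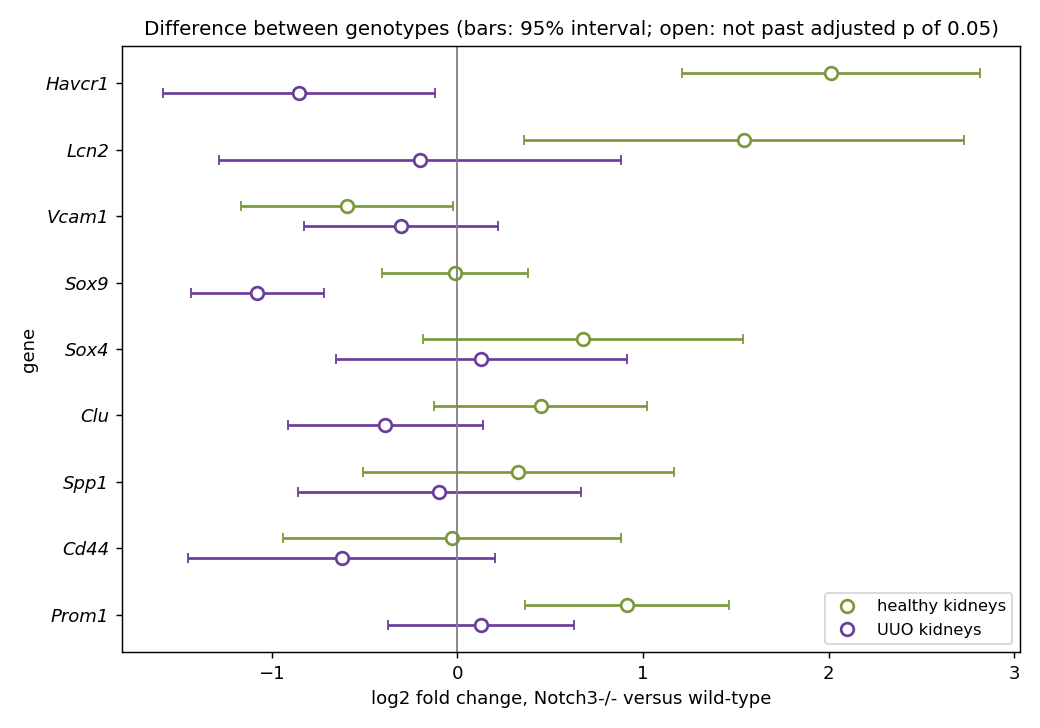
Log2 fold change of Notch3-/- against wild-type kidneys (horizontal axis) for the 9 markers in healthy (green) and UUO kidneys (purple), with 95% intervals of the limma fit; all points are open because none passed an adjusted p of 0.05. Havcr1 lies at 2.01 in healthy and at -0.85 in UUO kidneys, and Sox9 at -0.01 and -1.08.

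The difference between the responses of the genotypes was tested as an interaction. No marker passed, nor did any of the 23878 genes (0% called by limma, 1705 genes at an unadjusted p under 0.05, smallest adjusted p 0.162). At an unadjusted p under 0.05 there were 5 of 9 markers, beside 7.14% of all genes. Without Notch3-/- UUO replicate 1, 54 genes were called (0.226%), none of them a marker, and Havcr1 stood at -2.60 (adjusted p = 0.0749). The estimate was below 0, that is a smaller rise in Notch3-/- kidneys, for 8 of 9 markers, beside 57.2% of all genes. It was -2.87 ± 0.46 for Havcr1 (95% interval -3.95 to -1.78, adjusted p = 0.271), -1.75 ± 0.68 for Lcn2 (adjusted p = 0.687), -1.06 ± 0.22 for Sox9 (adjusted p = 0.382), -0.84 ± 0.33 for Clu (adjusted p = 0.691) and -0.79 ± 0.31 for Prom1 (adjusted p = 0.693). The 95% intervals of Cd44 (-0.60, -1.83 to 0.64), Sox4 (-0.55, -1.71 to 0.62), Spp1 (-0.43, -1.56 to 0.71) and Vcam1 (0.29, -0.48 to 1.07) included 0. With UUO replicates 2 and 3 from Notch3-/- mice left out, the estimate was -3.40 for Havcr1, -2.73 for Lcn2, -1.33 for Cd44, -1.26 for Sox4, -1.17 for Clu, -1.13 for Sox9, -0.96 for Spp1, -0.94 for Prom1 and -0.13 for Vcam1, with adjusted p from 0.381 to 0.949. The parts of this estimate differed between markers in the main fit: for Havcr1 and Lcn2 the healthy kidneys of the genotypes lay further apart than the UUO kidneys, and for Sox9 the healthy kidneys were level and the UUO kidneys apart. For Havcr1 these sizes depend on background correction, since its wild-type healthy signal was near the lower end of the range. With normexp its healthy difference was 1.05 in place of 2.01. Over 23 alternatives its interaction estimate ran from -3.40 to -1.92.

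Notch3-/- UUO replicate 1 held the lowest value of its group for all 9 markers, beside 41.2% of 23874 genes measured on these 3 arrays. Replicates 2 and 3 exceeded it by a median of 0.79 over the markers and 0.00 over all genes. Lcn2 was 1.48 lower on replicate 1 than the mean of the other 2. Without replicates 2 and 3, 402 genes (1.68%) were called between Notch3-/- UUO and healthy kidneys, and 6 of 9 markers were among them: Sox4, Clu and Prom1 were not. Within slide 4, which held all 3 Notch3-/- UUO arrays and 1 Notch3-/- healthy array, 787 genes (3.3%) and 4 markers were called. These were Havcr1 (6.67, adjusted p = 0.024), Vcam1 (4.94), Sox9 (4.11) and Spp1 (4.07), while Lcn2 (4.60, adjusted p = 0.0798), Cd44 (3.07, adjusted p = 0.0927), Clu (1.52, adjusted p = 0.101) and Sox4 (1.84, adjusted p = 0.154) had similar sizes without a call.

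A wider list of 37 injury and repair genes was read beside the 9, none of which it holds. In wild-type kidneys 24 rose and none fell, and in Notch3-/- kidneys 22 rose and none fell, with medians of 2.01 and 1.69. When Notch3-/- UUO replicates 2 and 3 were left out, the latter count was 3, and with normexp 22 rose and 3 fell. Of the 37, 19 rose in both, 5 passed in wild-type kidneys alone, 3 in Notch3-/- kidneys alone and 10 in neither, and no gene of the list was called between genotypes or in the interaction. Anxa3, an annexin, rose by 2.64 ± 0.17 (adjusted p = 0.000869) and 2.52 ± 0.16 (adjusted p = 0.000516), and the ferroxidase Cp by 3.69 ± 0.30 (adjusted p = 0.00111) and 2.34 ± 0.27 (adjusted p = 0.00277). The galectin Lgals3 rose by 2.01 ± 0.19 in wild-type kidneys (adjusted p = 0.00141) and Dcdc2a by 3.64 ± 0.34 (adjusted p = 0.00145). The urokinase receptor Plaur rose by 3.05 ± 0.26 (adjusted p = 0.00089) and the stress factor Atf3 by 3.50 ± 0.37 (adjusted p = 0.0019) in Notch3-/- kidneys. Lgals3, Dcdc2a, Plaur and Atf3 were among the genes that rose in both genotypes. A value given for wild-type or Notch3-/- kidneys alone does not set that genotype apart.

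**Figure D5:**
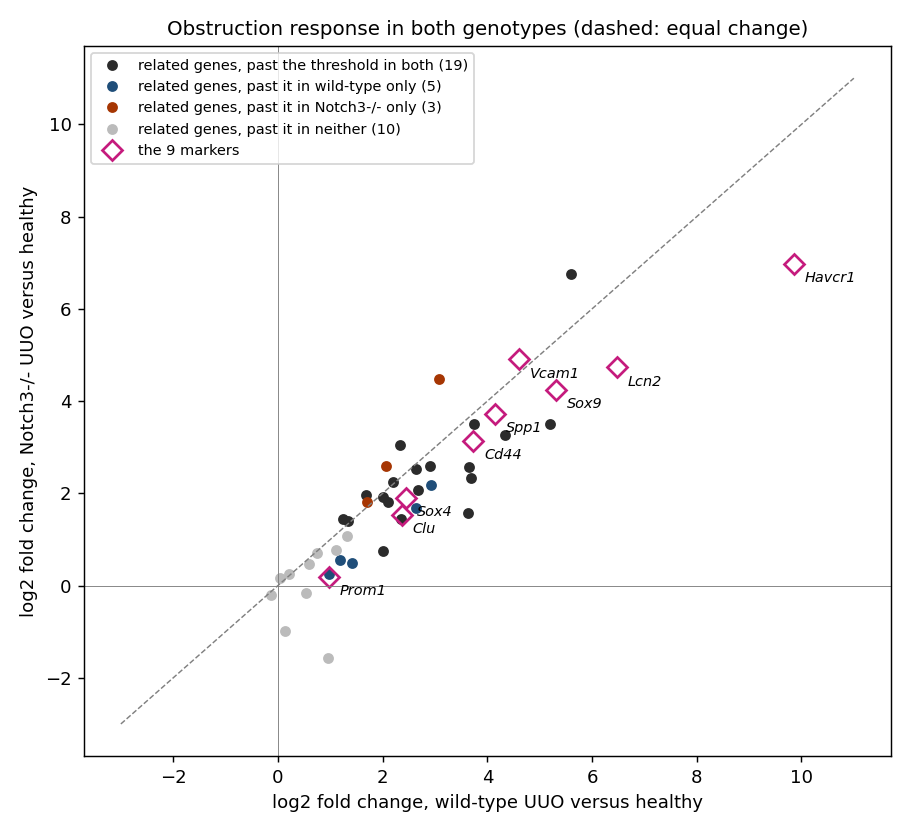
Log2 fold change from healthy to UUO kidneys in wild-type (horizontal axis) against Notch3-/- kidneys (vertical axis) for the 9 markers (diamonds) and 37 related injury genes (points, coloured by the genotype in which they passed an adjusted p of 0.05); the dashed line marks equal change. Of the 37 points, 19 passed in both genotypes, and 8 of the 9 diamonds lie below the dashed line. No difference between the 2 axes passed the test.

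Markers of the mature tubule went down on the arrays where the injury markers went up. Of 12 proximal tubule markers 9 fell in wild-type and 10 in Notch3-/- kidneys, and of 12 loop and distal markers 9 and 8 fell. The summed linear level of the proximal list was 602 to 708 in wild-type healthy, 123 to 191 in wild-type UUO, 639 to 644 in Notch3-/- healthy and 130 to 324 in Notch3-/- UUO kidneys. The 324 was that of Notch3-/- UUO replicate 1. Fibroblast and pericyte markers rose for 7 of 10 genes in wild-type and 9 of 10 in Notch3-/- kidneys. With UUO replicates 2 and 3 from Notch3-/- mice left out, 0 markers of either tubule list fell in Notch3-/- kidneys and 2 fibroblast markers rose. The part of this change in tissue makeup in the marker results was not tested.

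Across the 9 arrays, 8 of the markers ran nearly parallel and Prom1 did not. Pearson's r between pairs of the 8 lay between 0.924 (Sox4 and Sox9) and 0.993 (Havcr1 and Lcn2), and between Prom1 and the others from 0.582 (Vcam1) to 0.749 (Clu). These are descriptions over 9 arrays that share 1 contrast between healthy and obstructed kidneys, which alone makes any pair of responding genes correlate. By the same measure the genes most like each marker were Serpina10 (0.998), Aoc1 and Fxyd5 (both 0.994) for Havcr1, Il4i1, Ntf5 (both 0.999) and Fscn1 (0.997) for Lcn2, and Il6ra, Smpdl3b (both 0.998) and Sting1 (0.997) for Vcam1. For Sox9 they were Snx20 (0.993), Pik3ap1 and Ripk3 (both 0.992), for Sox4 Insyn1, Arhgef4 and Tnip1 (all 0.996), and for Clu Nfkb2 (0.995) and Dbndd1 (0.994). For Spp1 they were Cx3cr1, Ppfia4 and Lxn (all 0.996), for Cd44 Adam8 (0.998), Cebpd (0.997) and Kcnip4 (0.996), and for Prom1 R3hcc1 (0.981), Mcm6 and Rpl15 (both 0.977).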

How the data were processed

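Per the file headers, Agilent Feature Extraction 10.7.3.1 made the scanner files, while the submitters' processing notes name version 10.5. Per the same headers the deposited processed signal, an intensity, had its background subtracted with no normalization across arrays, and median spot and background intensities (used only for normexp) are raw. The authors' deposited value table holds log2 values with column medians of 7.02 to 7.05 and no centring of genes. How they were normalized is not stated in the labels or headers read here.

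Outlier spots (117 to 204 per array) were left out, the array's 75th percentile over non-control spots was subtracted from log2 processed signal, and repeated spots were averaged per probe. The filter kept 29336 of 39429 probes (well above background on 2 or more of the 9 arrays), and the brightest probe stood for a gene, which left 23878 tested, 16605 with a symbol. Unversioned accessions were matched to a RefSeq table of GRCm38.p6: 27234 probes gave 20659 symbols and 12195 stayed unnamed. The array grid is on mm9, so no probe coordinates are given. A limma 3.58.1 model (R 4.3.3) with a mean for each group used every array and left 5 residual degrees of freedom, with Benjamini-Hochberg adjustment over all genes at 0.05. Of these steps only the limma fit was tested on simulated gene values, for wild-type UUO versus healthy kidneys. Slides, replicate number, normalization, background correction, probe filters and rules, moderation and single arrays were varied. Named genes are the 9 markers, per list the 4 or fewer genes lowest in adjusted p in a comparison (every gene where a list has 8 or fewer), the 3 genes most correlated with each marker (1 of them is not reported here), and Notch3, Xist, Ddx3y and Cyp11b1. Mpo, Itgam, Eng, Csf3r, Mmp8, Retnlg and Cxcr2 were named after their values were seen where they are not among these. The markers, lists and tests were chosen with earlier results of these data known. The number of arrays limits the precision.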

Additional observations from a re-analysis of the deposited data

How the results depend on the processing

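All 9 markers were recomputed under 24 alternatives, 25 for Notch3-/- UUO versus healthy and 23 for the interaction. In wild-type kidneys Havcr1, Lcn2, Vcam1, Sox9, Sox4, Clu, Spp1 and Cd44 passed under all 24, while Prom1 passed in 14. In Notch3-/- kidneys Havcr1, Vcam1, Sox9 and Spp1 passed in 25 of 25, Lcn2 and Cd44 in 24, Clu in 23, Sox4 in 18 and Prom1 in 0. No called value changed its sign. Uncalled values changed sign 16 times between the UUO groups, 9 times between the healthy groups and 2 times in the interaction, where Sox4, Spp1, Prom1, Lcn2 and Clu of UUO and Sox9, Cd44 and Spp1 of healthy kidneys lie near 0.

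Counts of markers called moved as follows. Between the UUO groups the count was 1, Sox9, in place of 0 under quantile normalization, normexp, the authors' value table, the stricter probe filter, a fit of only the groups compared and array weights. In that order 0.591%, 0.884%, 1.25%, 0.773%, 2.53% and 17.3% of all genes were called, beside 0.297% in the main fit. Between the healthy groups it was 1, Havcr1, in place of 0 with trended and robust moderation, where 0.988% of all genes were called, beside 0.511%. Within Notch3-/- kidneys a fixed slide block gave 4 in place of 8, with 3.3% of all genes called, beside 27.2%. Leaving out 1 array at a time gave 8 to 9 markers in wild-type, 7 to 8 in Notch3-/- kidneys, 0 to 1 between UUO groups, 0 to 1 between healthy groups and 0 in the interaction. The cause of these moves was not tested.

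Replicate numbers are shared between groups, but no source pairs the samples by them, and deviations of same-numbered arrays correlated at 0.097 between the wild-type groups and at 0.158 and 0.0701 between the Notch3-/- groups. The replicate block gave 8 markers in wild-type (Prom1 at an adjusted p of 0.0728), 7 in Notch3-/- kidneys (Sox4 at 0.0765) and 0 in the other comparisons, with 2586, 924, 0, 1 and 0 of all genes called. Healthy arrays of the same number correlated at -0.113, and the crossed pairing, added after seeing the data, called 3 genes and 0 markers between the healthy groups.

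Normexp moved the median of all genes to -0.23 in Notch3-/- UUO versus healthy and to 0.18 between the healthy groups, and its calls in the former split into 2365 higher and 6022 lower genes, beside 3171 and 3322. Genes near the lower end of the signal range, Havcr1 and Sox9 of healthy kidneys here, have fold sizes that depend on background correction.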
